A study of Mus musculus with 20 samples.

Results

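The genes described here encode the core of the splicing machinery and its best known regulators, and they were followed in developing serotonin (5-HT) neurons of the mouse. Members were all genes of the expression matrix whose symbol begins with Hnrnp, Srsf and a number, Sf3a or Sf3b and a number, Snrp, or Prpf and a number. This gave 62 of 22556 genes, namely 18 heterogeneous nuclear ribonucleoprotein (hnRNP) genes, 11 serine/arginine-rich (SR) protein genes, 12 Sm and other snRNP protein genes, 8 genes of the SF3 complexes and 13 PRP genes. All 62 reached the level needed for testing (at least 1 FPKM in at least 3 of 9 libraries). FPKM counts sequenced fragments relative to transcript length and to all fragments mapped.

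The series holds 20 samples in 8 groups, all from C57BL/6 mice. Cells with the fluorescent protein EYFP were isolated by flow sorting, and for the tissue used for chromatin the labels name the ePet-EYFP transgene, whose ePet enhancer marks 5-HT neurons. The stage groups were wild type at E11.5 (E for embryonic day), at E15.5 and at postnatal days 1 to 3 (PN), with 3 libraries each, amplified with the Clontech SMARTer kit. At E15.5, Pet-1-/- neurons were set against wild-type neurons in 3 libraries each with the Clontech kit and in 3 libraries each with the NuGEN Ovation kit. The Clontech wild-type libraries at E15.5 serve both the knockout and the stage comparisons. Pet-1, encoded by Fev, is an ETS family transcription factor known for its near exclusive use in 5-HT neurons within the brain. In 1 further sample with 1 input, chromatin from hindbrain was enriched for mycPet-1 through its Myc tag. The labels of that sample conflict: a genotype field gives wild type, whereas the protocol gives Pet-1-/- with the transgenes ePet-mycPet-1 and ePet-EYFP, and the embryos are from E12.5 on, with a last age of E14.5 in one field and E15.5 in the other. Nothing says that replicates came from separate animals, so p-values measure the spread between these libraries, which may be technical.

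Splicing removes introns in the spliceosome, which is built from small nuclear RNAs (snRNAs) and proteins. U1 marks the 5′ splice site, U2 with the SF3 complexes marks the branch point, and the tri-snRNP of U4, U6 and U5 carries PRP proteins into the catalytic complex. A ring of Sm proteins sits on most of these snRNAs. SR proteins mostly promote and hnRNP proteins often repress the use of an exon, and neurons make many alternatively spliced transcripts as they mature.

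The deposited list of mycPet-1 peaks touched many of these genes. A peak lay within the gene or up to 5 kb before its start for 38 of 62 members (61.3%), against 23.2% of 18069 protein-coding genes of the matrix and 35.6% of the 10075 tested genes that could be placed. By family, peaks were at 13 of 18 hnRNP genes, 8 of 11 SR genes, 7 of 8 SF3 genes, 6 of 13 PRP genes and 4 of 12 Sm and snRNP genes. Scores are the authors' own values from a single sample, so these shares are a description without a test. The 44 peaks at members had a median score of 97.4, against 88.3 for all 4934 peaks. Where the promoter table holds a start site, 33 of 41 peaks covered it, and the median distance from peak centre to start was 197 bases. Within 1 kb of a start, 35 of 55 members had a peak (63.6%), against 33.3% of tested genes.

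**Figure D1:**
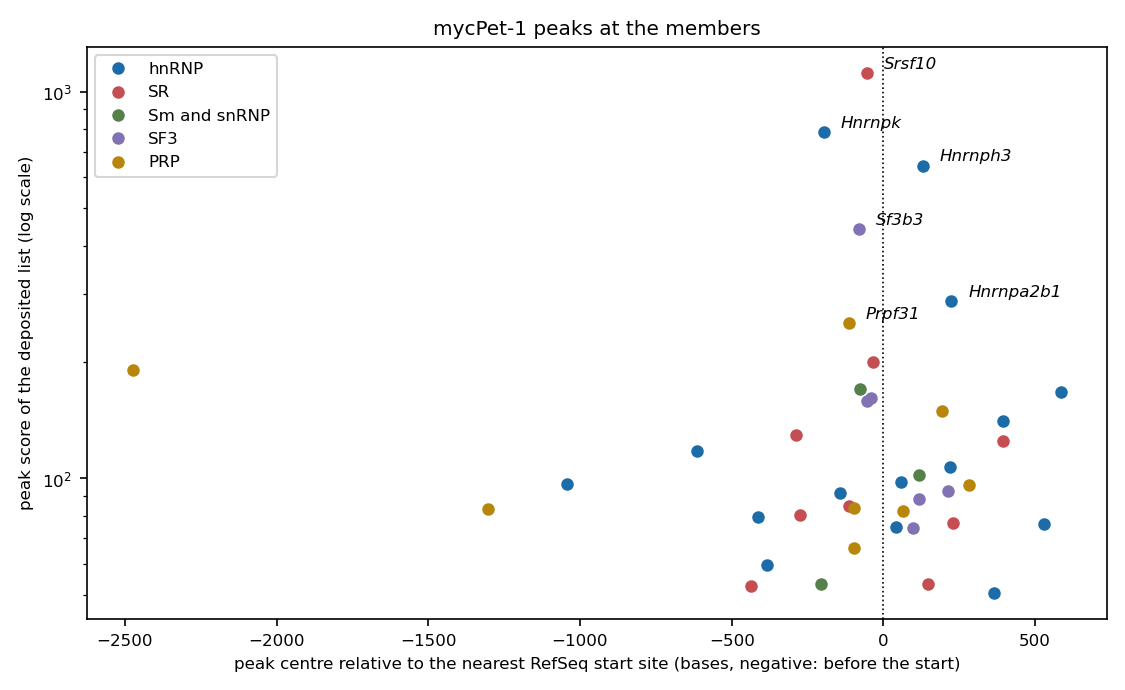
Position of the peak centre relative to the nearest start site in bases (horizontal axis, negative before the start) against the deposited peak score (vertical axis, log scale) for the peaks at members with a known start, coloured by family. Most centres lie close to the start, and the highest scores belong to Srsf10 (1117), Hnrnpk (785) and Hnrnph3 (644).

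The members with the highest-scoring peaks at a known start were Srsf10, Hnrnpk, Hnrnph3, Sf3b3, Hnrnpa2b1 and Prpf31, and their promoters are printed because the data bear on them: each lies under a peak and each gene was lower in PN than in E15.5 libraries, as described further on. The sequences are RefSeq promoters of GRCm38.p6 (mm10), 5′ to 3′ on the gene's strand, from 250 bases before the start to 50 after it. Capitals mark the ETS core CCGGAA or, for the other strand, TTCCGG, which share their central CCGG, so a run of letters can hold both.
Srsf10: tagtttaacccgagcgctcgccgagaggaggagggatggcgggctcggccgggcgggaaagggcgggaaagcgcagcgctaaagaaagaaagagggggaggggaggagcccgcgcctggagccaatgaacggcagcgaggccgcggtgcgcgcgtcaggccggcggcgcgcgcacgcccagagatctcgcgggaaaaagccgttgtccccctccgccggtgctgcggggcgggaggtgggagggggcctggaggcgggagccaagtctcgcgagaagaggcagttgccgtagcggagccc
Hnrnpk: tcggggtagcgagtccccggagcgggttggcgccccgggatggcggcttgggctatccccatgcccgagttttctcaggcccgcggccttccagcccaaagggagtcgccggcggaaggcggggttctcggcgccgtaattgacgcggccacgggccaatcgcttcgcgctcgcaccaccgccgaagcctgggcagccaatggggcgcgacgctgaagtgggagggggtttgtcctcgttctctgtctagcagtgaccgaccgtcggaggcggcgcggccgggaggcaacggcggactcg
Hnrnph3: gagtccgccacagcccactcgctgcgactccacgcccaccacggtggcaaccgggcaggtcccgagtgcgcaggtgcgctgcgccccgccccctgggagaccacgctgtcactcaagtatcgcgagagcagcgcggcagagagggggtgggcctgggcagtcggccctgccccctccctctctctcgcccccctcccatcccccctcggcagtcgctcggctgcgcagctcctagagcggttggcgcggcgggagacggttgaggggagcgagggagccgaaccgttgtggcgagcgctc
Sf3b3: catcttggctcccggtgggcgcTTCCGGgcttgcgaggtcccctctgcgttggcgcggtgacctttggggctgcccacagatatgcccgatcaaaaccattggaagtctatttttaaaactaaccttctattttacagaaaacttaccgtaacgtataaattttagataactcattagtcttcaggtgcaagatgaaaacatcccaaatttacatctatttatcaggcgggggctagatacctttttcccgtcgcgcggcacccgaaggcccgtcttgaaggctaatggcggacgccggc
Hnrnpa2b1: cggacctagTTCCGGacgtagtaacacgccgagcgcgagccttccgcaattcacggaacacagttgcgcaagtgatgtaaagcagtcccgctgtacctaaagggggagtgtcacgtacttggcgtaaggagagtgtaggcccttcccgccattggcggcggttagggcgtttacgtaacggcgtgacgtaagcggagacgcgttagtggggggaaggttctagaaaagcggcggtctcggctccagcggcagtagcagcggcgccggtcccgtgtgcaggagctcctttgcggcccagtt
Prpf31: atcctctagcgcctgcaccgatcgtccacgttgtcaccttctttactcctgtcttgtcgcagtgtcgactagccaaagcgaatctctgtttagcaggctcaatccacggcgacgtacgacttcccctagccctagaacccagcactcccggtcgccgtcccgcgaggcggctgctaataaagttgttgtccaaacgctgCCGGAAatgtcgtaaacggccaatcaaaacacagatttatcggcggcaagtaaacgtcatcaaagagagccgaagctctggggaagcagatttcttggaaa

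The Srsf10 peak spans chr4:135855408-135856627 and covers the start of this plus-strand gene. The Hnrnpk peak spans chr13:58401101-58403527 and the Hnrnph3 peak chr10:63022902-63024536, at the starts of minus-strand genes. Peaks at chr8:110846234-110847533 for Sf3b3 (minus strand), chr6:51468876-51470365 for Hnrnpa2b1 (minus strand) and chr7:3629339-3630400 for Prpf31 (plus strand) also cover starts. Counted from the start, the core began at position -228 in Sf3b3 and -241 in Hnrnpa2b1, both on the other strand, and at -51 on the same strand in Prpf31. It was not among the letters of the other windows. In all, 36 of 75 member promoters held the core on either strand (48.0%), against 26.4% of promoters of tested genes and 14.9% of all promoters of the table, which are of the same length. Of 41 member promoters that overlap a peak 26 held it (63.4%), and of 34 that overlap none 10 held it (29.4%). A match is a description of letters and does not mark a bound site.

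Between libraries the members took 1.02% to 1.198% of the FPKM sum at E11.5, 1.04% to 1.31% at E15.5 and 0.700% to 0.818% in PN libraries, so the PN range lay below those of both embryonic stages. Library FPKM sums were 630091 to 919994, and depth is unknown because the files give no read numbers. Letters a to c stand for the columns of a stage in file order, and no label links a letter across stages. The E15.5 columns name no kit and were taken as Clontech from the protocol. Library c was the highest of its stage at all 3 stages for 22 members (35.5%, against 12.6% of all tested genes). The library was the lowest at all 3 stages for 6 members (9.68%, near the 9.80% of all tested genes). These were Sf3a2, Sf3b4, Sf3b5, Snrpa, Snrpb and Snrpc. All 10 markers of serotonin neurons were detected at each stage, with sums of 1080.2 to 1485 FPKM at E11.5, 504 to 603 FPKM at E15.5 and 497 to 749.7 FPKM in PN libraries. Summed FPKM of 11 microglial markers were 8.26 to 14.6 at E11.5, 14.53 to 36.3 at E15.5 and 145 to 1378 in PN libraries, highest in PN b. Sums of 8 astrocyte and radial glia markers were 264 to 302 at E11.5, 956 to 1812 at E15.5 and 1101 to 5739.7 in PN libraries, and sums of 8 markers of proliferating cells were 84.5 to 111 at E11.5, 154 to 229.8 at E15.5 and 104 to 143 in PN libraries. Of 10 tested microglial markers 8 were called higher in PN than E15.5 libraries, and of 7 tested proliferation markers 4 were called lower. At E15.5 against E11.5, 6 of 10 serotonin neuron markers were called lower and 0 higher, while 4 of 7 tested astrocyte and radial glia markers and 4 of 7 proliferation markers were called higher and 1 of each list lower. Sums of 7 oligodendrocyte markers were 6.10 to 12.6 at E11.5 (Pdgfra and Sox10 at 0), 14.6 to 72.0 at E15.5 and 13.0 to 16.1 in PN libraries. Sums of 6 vascular markers were 0 to 11.2 at E11.5 (all but 1 listed at 0 in every library), 30.1 to 69.7 at E15.5 and 0.216 to 14.8 in PN libraries, and 4 blood markers summed to 0 to 0.676 at E11.5 (Hbb-b1 at 0), 10.05 to 47.8 at E15.5 and 0.332 to 7.66 in PN libraries. Sums of the 4 neuronal markers found were 5934 to 6394 at E11.5, 1691 to 2406 at E15.5 and 5563 to 7509 in PN libraries. One of them, Tubb3, is listed at 0 in all E15.5 libraries, so it adds nothing to the sums there. Whether that 0 means no transcript or a missing estimate was not tested. The part of these cells in the results that follow was not tested. In such bulk samples, fewer cells of a type and less RNA per cell cannot be told apart.

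Across the stages, the members were mostly lower in PN than in embryonic libraries. Both intervals use the E15.5 libraries, so a value there enters the changes before and after with opposite signs. From E15.5 to PN, 19 members fell, Hnrnpa2b1, Hnrnph2, Hnrnpk, Prpf3 and Prpf6 the most steeply, and Sf3a2 and Sf3b4 rose. A call required a limma adjusted p below 0.05 and at least 1.5-fold on log2(FPKM + 1), fitted over all 11700 tested genes in 9 libraries. Of all tested genes 9.96% were called lower and 11% higher. The median log2 change of the members was -0.54, against 0.01 over all tested genes. In what follows, a call described as lost without a library no longer passed when that library was left out, and one lost with a setting no longer passed under that alternative processing (no low filter means that all genes with any signal were tested). Without PN a the members called were 8 lower and 0 higher, without E15.5 a 10 and 1, and without E15.5 c 12 and 0. Over all 11700 tested genes calls fell as well, from 1165 lower and 1292 higher to 555 and 818 without PN a. They were 621 and 840 without E15.5 a and 777 and 828 without E15.5 c. Without PN b, the library with the most microglial signal, 13 members were lower and 0 higher, where 698 and 856 of all tested genes were. A single member was called higher (1) without E11.5 b or E15.5 b, where 1261 and 960 of all tested genes were.

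From E11.5 to E15.5 the members moved in both directions: 9 rose, led by Srsf12, Prpf39, Hnrnph2 and Srsf5, and 12 fell, among them Sf3a2, Snrpb, Srsf11 and Srsf6. Of all tested genes 17.8% were called higher and 11.7% lower, and the median log2 change was -0.01 for members and 0.12 for all genes. Scaling the libraries to a common upper quartile moved the median of all genes to -0.03 and gave 4 members higher and 14 lower. Of all tested genes it gave 1664 higher and 1745 lower, against 2079 and 1371 without scaling. Without E11.5 a 5 members were higher and 7 lower, without E11.5 b 5 were higher, and without E15.5 b or E15.5 c 4 were higher, with 7 lower in the absence of E15.5 c. Over all tested genes, 1773 were higher and 1159 lower without E11.5 a. Without E11.5 b, E15.5 b and E15.5 c, 1699, 1556 and 1573 of all tested genes were higher, and 918 were lower without E15.5 c. Between E11.5 and PN, 2 members rose (Srsf12 and Prpf39) and 16 fell, against 17.7% and 10.3% of all tested genes, with medians of -0.58 and 0.08. In that span 8 were lower without E11.5 c or PN b and 10 without PN a, and 1 was higher without E11.5 b, PN b or PN c. Of all tested genes 1104, 895 and 897 were lower without E11.5 c, PN b and PN a, against 1207 with all libraries. Higher were 1815, 1598 and 1700 without E11.5 b, PN b and PN c, against 2069. The mean was lowest at PN for 41 members (66.1%, against 31.5% of all tested genes) and highest there for 2 (3.23%, against 33.2%).

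**Figure D2:**
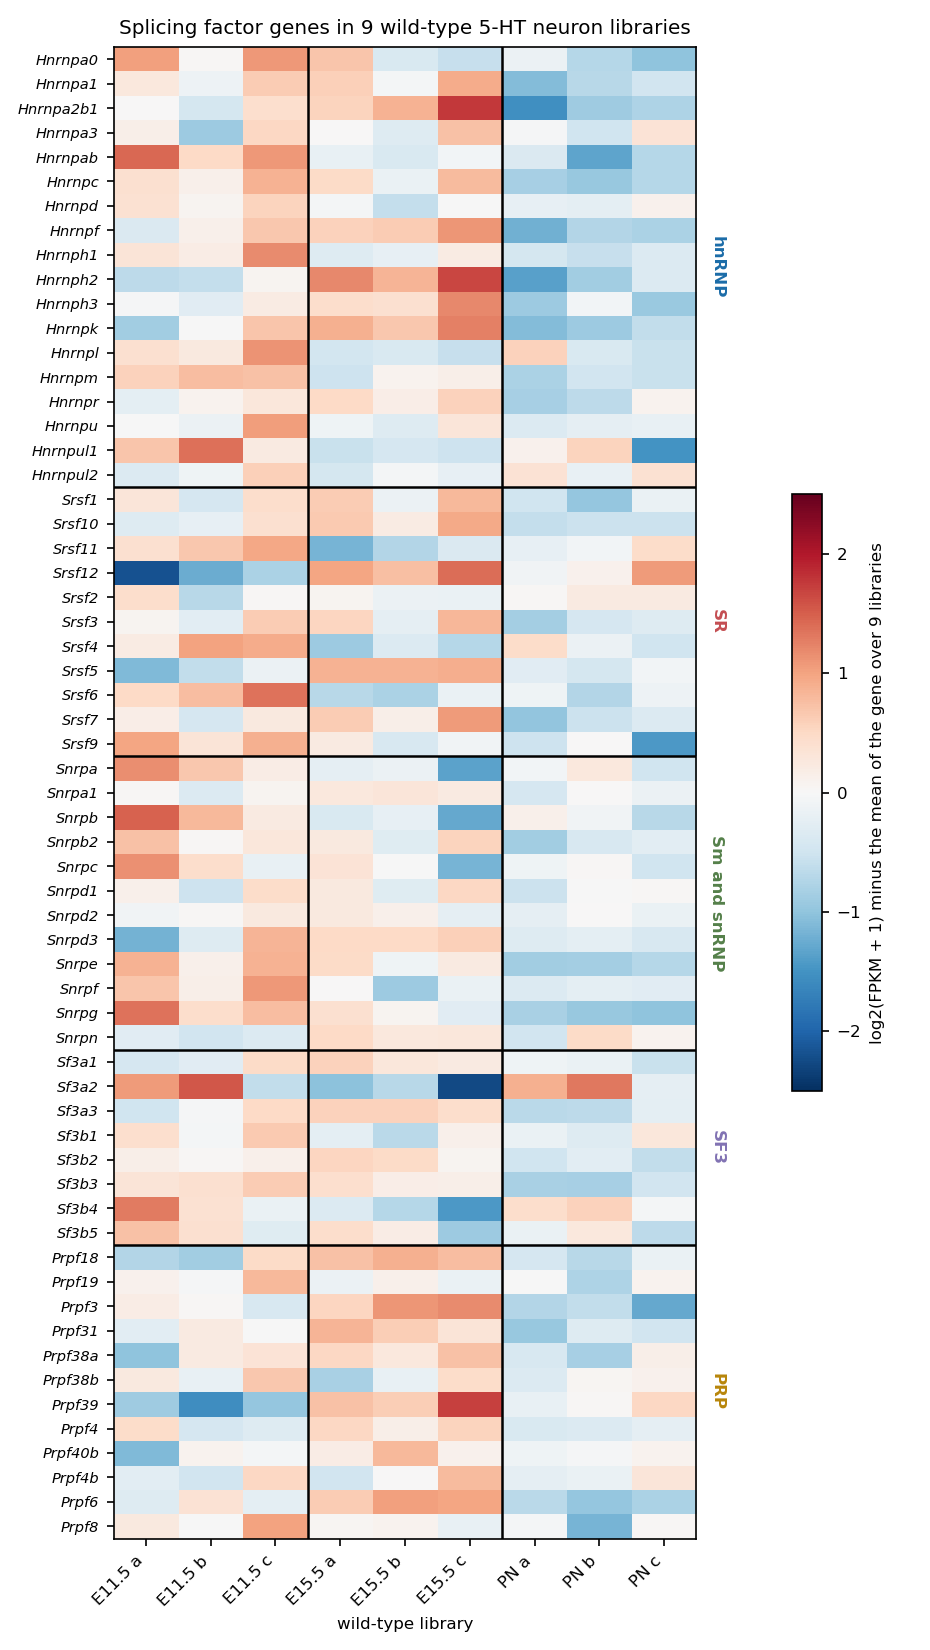
Log2(FPKM + 1) of each member drawn minus its mean over the 9 wild-type libraries (colour, red above and blue below that mean), with genes in rows by family and libraries in columns by stage. The PN columns are mostly blue, and 41 of 62 members have their lowest stage mean there.

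Among the hnRNP genes, 7 of 18 fell from E15.5 to PN and 0 rose, and 3 were higher and 3 lower at E15.5 than at E11.5. Hnrnpa2b1, which encodes the A2 and B1 proteins that bind exons and target RNAs for transport, had 128, 94.3 and 172 FPKM in E11.5, 189, 233 and 437 FPKM in E15.5 and 43.5, 68.8 and 74.5 FPKM in PN libraries. Every E15.5 library lay above every other library. Hnrnpa2b1 had a log2 change of 1.06 for E15.5 over E11.5 (limma, SE 0.35, adjusted p = 0.0358, lost without E11.5 a or b or E15.5 b or c or with the compared stages only or with no low filter or with no trend or with upper quartile scaling with adjusted p up to 0.149). Hnrnpa2b1 had a log2 change of -2.12 for PN over E15.5 (limma, SE 0.35, adjusted p = 0.00137). Hnrnpa2b1 had a log2 change of -1.06 for PN over E11.5 (limma, SE 0.35, adjusted p = 0.0371, lost without E11.5 a or c or E15.5 b or PN a or b or with no low filter or with no trend with adjusted p up to 0.149). Hnrnpk, whose KH domains bind cytosine-rich RNA, had 165, 301 and 489 FPKM in E11.5, 564, 487 and 727 FPKM in E15.5 and 143, 161 and 199 FPKM in PN libraries. The PN values were all below the E15.5 values, whereas E11.5 and E15.5 overlapped. Hnrnpk had a log2 change of 1.01 for E15.5 over E11.5 (limma, SE 0.34, adjusted p = 0.0414, lost without E11.5 a or b or any E15.5 library or PN a or b or with the compared stages only or with no low filter or with no trend or with upper quartile scaling with adjusted p up to 0.155). Hnrnpk had a log2 change of -1.81 for PN over E15.5 (limma, SE 0.34, adjusted p = 0.00305). Hnrnph2, a paralog of Hnrnph1 that binds runs of guanines, had 17.1, 17.9 and 28.9 FPKM in E11.5, 64.7, 50.5 and 89.6 FPKM in E15.5 and 10.2, 14.6 and 21.5 FPKM in PN libraries, so E15.5 stood apart on both sides. Hnrnph2 changed on the log2 scale by 1.64 for E15.5 over E11.5 (limma, SE 0.35, adjusted p = 0.00397). Hnrnph2 had a log2 change of -2.10 for PN over E15.5 (limma, SE 0.35, adjusted p = 0.00144).

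Hnrnpf, Hnrnpc, Hnrnph3 and Hnrnpa1 fell in the later interval and were not called in the earlier one. Hnrnpf, a further G-run binding protein, had 45.2, 63.8 and 94.3 FPKM in E11.5, 88.0, 91.5 and 127 FPKM in E15.5 and 24.8, 34.9 and 33.5 FPKM in PN libraries. All PN libraries were below all others. Hnrnpf had a log2 change of -1.68 for PN over E15.5 (limma, SE 0.31, adjusted p = 0.00262). Hnrnpf had a log2 change of -1.05 for PN over E11.5 (limma, SE 0.31, adjusted p = 0.0218, lost without E11.5 c or PN a with adjusted p up to 0.0867). Hnrnpc, which binds uridine tracts, had 138, 114 and 192 FPKM in E11.5, 146, 92.3 and 180.4 FPKM in E15.5 and 58.3, 53.3 and 63.4 FPKM in PN libraries, and the log2 change was -1.19 for PN over E15.5 (limma, SE 0.30, adjusted p = 0.0137, lost without E15.5 a or c or PN b with adjusted p up to 0.0557). Hnrnpc had a log2 change of -1.30 for PN over E11.5 (limma, SE 0.30, adjusted p = 0.0052). Hnrnph3 had 18.2, 15.01 and 21.4 FPKM in E11.5, 25.6, 24.9 and 43.7 FPKM in E15.5 and 9.39, 17.7 and 9.25 FPKM in PN libraries. Hnrnph3 changed on the log2 scale by -1.32 for PN over E15.5 (limma, SE 0.35, adjusted p = 0.0176, lost without E15.5 c or PN a or c with adjusted p up to 0.0767), with no overlap between PN and E15.5. Hnrnpa1, a repressor of exon inclusion, had 238, 181 and 306 FPKM in E11.5, 298, 190.5 and 373 FPKM in E15.5 and 92.5, 122 and 142 FPKM in PN libraries. The log2 change of Hnrnpa1 was -1.24 for PN over E15.5 (limma, SE 0.30, adjusted p = 0.0129, lost without E15.5 c or PN a with adjusted p up to 0.065). Hnrnpa1 had a log2 change of -1.01 for PN over E11.5 (limma, SE 0.30, adjusted p = 0.0246, lost without E11.5 c or PN a or b or with no low filter with adjusted p up to 0.102). A gene listed as Gm10052 shares its locus, so reads may be split between them. The sum of both was 238.1, 226.3 and 316 FPKM in E11.5, 414, 444 and 592 FPKM in E15.5 and 92.5, 172 and 160.0 FPKM in PN libraries, again lowest at PN. In these sums, which were not tested, E15.5 also lay above E11.5 without overlap. Gm10052 had 0 FPKM in E11.5 a and PN a but 45.3 and 49.9 FPKM in E11.5 b and PN b. The sums are thus uncertain.

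Hnrnpab and Hnrnpm were lower already at E15.5. Hnrnpab, a CArG-box binding protein, had 130.4, 67.7 and 103 FPKM in E11.5, 41.5, 36.3 and 45.6 FPKM in E15.5 and 36.8, 18.6 and 28.5 FPKM in PN libraries, with E11.5 above all later libraries. Hnrnpab had a log2 change of -1.22 for E15.5 over E11.5 (limma, SE 0.32, adjusted p = 0.0129). Hnrnpab had a log2 change of -1.81 for PN over E11.5 (limma, SE 0.32, adjusted p = 0.00101). Hnrnpm, which binds GU-rich RNA, had 140.4, 160.1 and 156 FPKM in E11.5, 65.1, 99.4 and 104 FPKM in E15.5 and 53.8, 66.3 and 63.5 FPKM in PN libraries, and the log2 change was -0.79 for E15.5 over E11.5 (limma, SE 0.26, adjusted p = 0.0356, lost without E11.5 b or c or E15.5 a or b or with the compared stages only or with no trend with adjusted p up to 0.142). Hnrnpm had a log2 change of -1.30 for PN over E11.5 (limma, SE 0.26, adjusted p = 0.00202). Both were lower at each later stage than in any E11.5 library. Hnrnpl, which binds CA repeats, had 33.6, 29.9 and 56.4 FPKM in E11.5, 18.03, 19.2 and 16.6 FPKM in E15.5 and 37.9, 19.2 and 16.8 FPKM in PN libraries, and PN overlapped both embryonic stages. Hnrnpl changed on the log2 scale by -1.06 for E15.5 over E11.5 (limma, SE 0.35, adjusted p = 0.038, lost without E11.5 c or any E15.5 library or with no low filter with adjusted p up to 0.128). Hnrnpa0 and Hnrnph1 were called between E11.5 and PN and in neither interval. Hnrnpa0 had 60.3, 29.5 and 62.8 FPKM in E11.5, 47.3, 22.0 and 19.1 FPKM in E15.5 and 25.9, 17.3 and 13.9 FPKM in PN libraries, a log2 change of -1.34 for PN over E11.5 (limma, SE 0.40, adjusted p = 0.0244, lost without E11.5 a or c or PN b or c or with no low filter with adjusted p up to 0.0916), and Hnrnph1 had 146, 133 and 266 FPKM in E11.5, 92.2, 100.1 and 133 FPKM in E15.5 and 85.5, 77.3 and 91.9 FPKM in PN libraries, a log2 change of -1.02 for PN over E11.5 (limma, SE 0.29, adjusted p = 0.0192, lost without E11.5 c or PN a or b with adjusted p up to 0.0795). Hnrnpk, Hnrnph3, Hnrnpab, Hnrnpa3, Prpf39, Sf3a3, Sf3b3 and Snrpf are listed at a locus shared with another gene as well, so their values carry the same uncertainty. Hnrnpa3 had 18.6, 8.38 and 24.2 FPKM in E11.5, 16.8, 13.2 and 28.5 FPKM in E15.5 and 16.3, 11.6 and 21.4 FPKM in PN libraries, with all stages overlapping, but with its copy Gm6793 the sums were 68.7, 50.0 and 121 FPKM in E11.5, 36.8, 52.7 and 98.1 FPKM in E15.5 and 35.0, 42.2 and 47.6 FPKM in PN libraries. In these sums, which were not tested, PN lay below E11.5 without overlap. The remaining 6 hnRNP genes, Hnrnpa3, Hnrnpd, Hnrnpr, Hnrnpu, Hnrnpul1 and Hnrnpul2, passed no stage test.

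**Figure D3:**
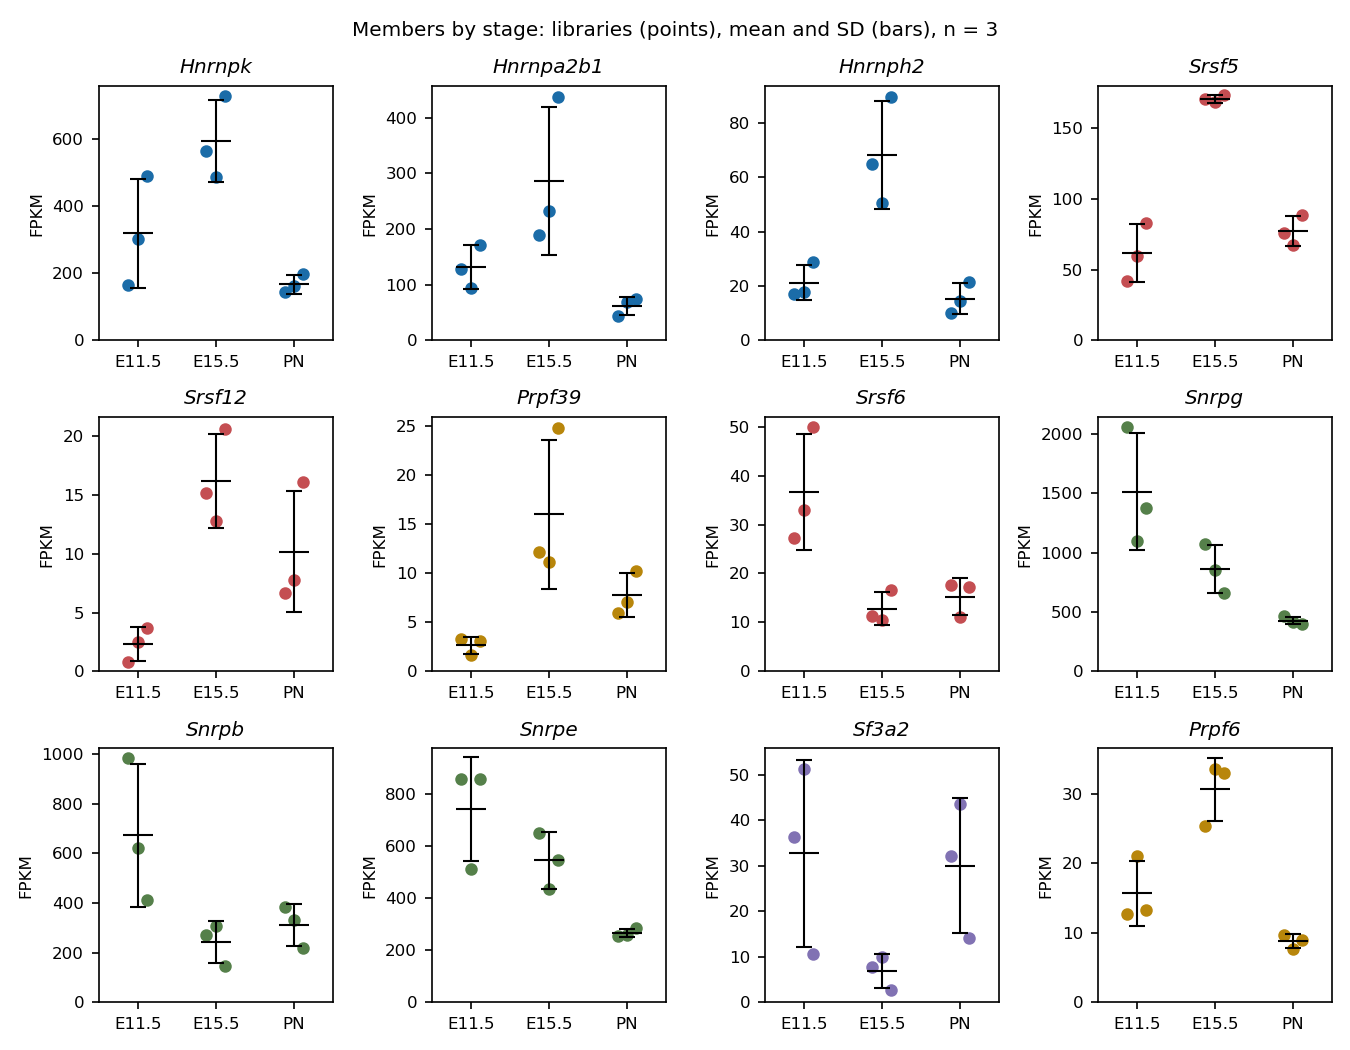
FPKM (vertical axes, from 0) of 12 members by stage, with 1 point per library and bars for mean and SD (n = 3). Hnrnpa2b1, Hnrnph2, Srsf5 and Prpf6 peak at E15.5, Snrpg and Snrpe are lowest at PN, and Sf3a2 is lowest at E15.5.

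The SR genes split. Srsf5 rose to E15.5 and fell to PN, Srsf12 rose to E15.5, and Srsf4, Srsf6 and Srsf11 fell to E15.5. Srsf12, an SR-related protein known to antagonise SR proteins at splice sites, had 0.800, 2.46 and 3.70 FPKM in E11.5, 15.1, 12.8 and 20.6 FPKM in E15.5 and 6.67, 7.74 and 16.1 FPKM in PN libraries, so every E11.5 library was below every later one. Srsf12 had a log2 change of 2.45 for E15.5 over E11.5 (limma, SE 0.44, adjusted p = 0.00127). Srsf12 had a log2 change of 1.76 for PN over E11.5 (limma, SE 0.44, adjusted p = 0.00826). Srsf5 had 42.2, 59.9 and 83.2 FPKM in E11.5, 170.2, 168 and 173 FPKM in E15.5 and 75.9, 67.6 and 88.2 FPKM in PN libraries, with E15.5 values close together and above all others. Srsf5 changed on the log2 scale by 1.502 for E15.5 over E11.5 (limma, SE 0.28, adjusted p = 0.00161). Srsf5 had a log2 change of -1.14 for PN over E15.5 (limma, SE 0.28, adjusted p = 0.0119). Srsf6 had 27.2, 32.9 and 49.9 FPKM in E11.5, 11.4, 10.5 and 16.7 FPKM in E15.5 and 17.6, 11.03 and 17.2 FPKM in PN libraries. Srsf6 had a log2 change of -1.43 for E15.5 over E11.5 (limma, SE 0.34, adjusted p = 0.00692). Srsf6 had a log2 change of -1.19 for PN over E11.5 (limma, SE 0.34, adjusted p = 0.0172, lost without E11.5 c or PN b with adjusted p up to 0.0791). Srsf4 had 20.6, 36.6 and 34.8 FPKM in E11.5, 9.03, 13.7 and 10.4 FPKM in E15.5 and 24.6, 16.0 and 12.3 FPKM in PN libraries. Srsf4 had a log2 change of -1.37 for E15.5 over E11.5 (limma, SE 0.35, adjusted p = 0.0104). Srsf11, which has been found with U2AF and U1 proteins, had 49.9, 60.6 and 74.2 FPKM in E11.5, 16.0, 22.2 and 29.0 FPKM in E15.5 and 32.3, 35.5 and 51.9 FPKM in PN libraries. Srsf11 had a log2 change of -1.44 for E15.5 over E11.5 (limma, SE 0.31, adjusted p = 0.00429). For all 3 of them the E11.5 values lay above the E15.5 values without overlap.

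In the later interval Srsf10 and Srsf7 fell with Srsf5, 3 of 11 SR genes in all, and 0 rose. Srsf10, known as a splicing repressor when dephosphorylated and the member with the highest peak score, had 20.2, 22.2 and 34.0 FPKM in E11.5, 41.2, 29.7 and 50.7 FPKM in E15.5 and 16.6, 17.4 and 17.3 FPKM in PN libraries. The PN libraries were tightly grouped below all embryonic ones. Srsf10 changed on the log2 scale by -1.16 for PN over E15.5 (limma, SE 0.31, adjusted p = 0.0175, lost without E15.5 a or c or PN a with adjusted p up to 0.0707). Srsf7, an SR protein that also serves mRNA export, had 172, 114 and 183 FPKM in E11.5, 240.2, 171 and 322 FPKM in E15.5 and 76.9, 106 and 122 FPKM in PN libraries. Srsf7 changed on the log2 scale by -1.24 for PN over E15.5 (limma, SE 0.30, adjusted p = 0.0124, lost without E15.5 c or PN a with adjusted p up to 0.0635). Srsf9 passed over the whole span, with 23.8, 14.7 and 22.1 FPKM in E11.5, 13.6, 8.44 and 10.8 FPKM in E15.5 and 7.76, 11.7 and 3.65 FPKM in PN libraries. Srsf9 had a log2 change of -1.37 for PN over E11.5 (limma, SE 0.40, adjusted p = 0.0191, lost without E11.5 a or PN c with adjusted p up to 0.0897). No stage comparison called Srsf1, Srsf2 or Srsf3.

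The Sm and snRNP genes, which include the most abundant members, fell or failed the test in every stage comparison: 4, 2 and 5 of 12 were lower and 0 higher from E11.5 to E15.5, E15.5 to PN and E11.5 to PN. Snrpg (SmG), with the highest mean FPKM of all members, had 2057, 1100.3 and 1373 FPKM in E11.5, 1073, 849 and 662 FPKM in E15.5 and 463, 416 and 403 FPKM in PN libraries, and the 3 stages did not overlap. Snrpg had a log2 change of -0.79 for E15.5 over E11.5 (limma, SE 0.27, adjusted p = 0.0437, lost without E11.5 a or c or E15.5 b or c or any PN library or with the compared stages only or with no low filter or with no trend with adjusted p up to 0.164). Snrpg had a log2 change of -0.99 for PN over E15.5 (limma, SE 0.27, adjusted p = 0.0219, lost without E15.5 a or b or any PN library or with no low filter or with no trend with adjusted p up to 0.0905). Snrpg had a log2 change of -1.77 for PN over E11.5 (limma, SE 0.27, adjusted p = 0.000326). Snrpe (SmE) had 858, 513 and 860.4 FPKM in E11.5, 653, 436 and 549 FPKM in E15.5 and 256, 260.3 and 286 FPKM in PN libraries, and its PN values were close together below all others. Snrpe changed on the log2 scale by -1.01 for PN over E15.5 (limma, SE 0.26, adjusted p = 0.0168, lost without E15.5 a or PN a or b with adjusted p up to 0.0697). Snrpe had a log2 change of -1.43 for PN over E11.5 (limma, SE 0.26, adjusted p = 0.00122). Snrpf (SmF) had 102, 70.1 and 135 FPKM in E11.5, 63.0, 33.0 and 56.2 FPKM in E15.5 and 49.1, 53.0 and 51.4 FPKM in PN libraries. Snrpf had a log2 change of -1.002 for E15.5 over E11.5 (limma, SE 0.32, adjusted p = 0.0296, lost without E11.5 a or c or E15.5 b or with the compared stages only or with no low filter with adjusted p up to 0.128). Snrpf had a log2 change of -0.94 for PN over E11.5 (limma, SE 0.32, adjusted p = 0.0401, lost without E11.5 a or c or any PN library or with no low filter or with no trend with adjusted p up to 0.138). These 3 proteins form one unit of the Sm ring, and each was lower in every PN library than in any E11.5 library.

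Snrpd2 (SmD2), the second most abundant member, had 642, 699 and 808 FPKM in E11.5, 809.9, 746 and 584 FPKM in E15.5 and 585, 689.7 and 608 FPKM in PN libraries and passed no stage test, with a log2 change of -0.19 for PN over E11.5 (limma, SE 0.22, adjusted p = 0.574). Snrpa, the A protein of U1, had 327, 230.3 and 164 FPKM in E11.5, 123, 131 and 56.9 FPKM in E15.5 and 139, 174 and 102 FPKM in PN libraries. Snrpa changed on the log2 scale by -1.24 for E15.5 over E11.5 (limma, SE 0.36, adjusted p = 0.0205, lost without E11.5 a or b or E15.5 c or with no low filter with adjusted p up to 0.0849). Snrpb2, the U2B″ protein of U2, had 259, 157 and 189 FPKM in E11.5, 183, 126 and 229.8 FPKM in E15.5 and 84.4, 118 and 129.5 FPKM in PN libraries. Snrpb2 changed on the log2 scale by -0.85 for PN over E11.5 (limma, SE 0.30, adjusted p = 0.0472, lost without E11.5 a or c or E15.5 a or any PN library or with the compared stages only or with no low filter or with no trend or with a pseudocount of 0.1 with adjusted p up to 0.173), with no overlap between PN and E11.5. Snrpa1, Snrpc, Snrpd1 and Snrpd3 passed no stage test. Snrpd1 had 305, 194 and 386 FPKM in E11.5, 330, 227 and 398 FPKM in E15.5 and 193, 276 and 284 FPKM in PN libraries.

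Snrpb and Snrpn encode alternative proteins of the same place in the ring, SmB with its variant B′ in most tissues and SmN in neurons, and Snrpn is imprinted. Snrpb had 983, 623 and 413 FPKM in E11.5, 273, 306 and 146 FPKM in E15.5 and 386, 333 and 218 FPKM in PN libraries. The E11.5 libraries were above all E15.5 libraries, and PN overlapped E15.5. Snrpb had a log2 change of -1.45 for E15.5 over E11.5 (limma, SE 0.36, adjusted p = 0.00962). Snrpb had a log2 change of -1.05 for PN over E11.5 (limma, SE 0.36, adjusted p = 0.0447, lost without E11.5 a or b or E15.5 a or b or any PN library or with no low filter or with no trend or with a pseudocount of 0.1 with adjusted p up to 0.167). Snrpn had 215, 188 and 209 FPKM in E11.5, 372, 316 and 321 FPKM in E15.5 and 189, 368 and 280.1 FPKM in PN libraries, higher in each E15.5 library than in any E11.5 library, but did not pass the test at 0.72 for E15.5 over E11.5 (limma, SE 0.26, adjusted p = 0.0559). The share of Snrpn in the sum of both (FPKM are per length, so levels can be added) was 17.98%, 23.2% and 33.6% at E11.5, 57.7%, 50.8% and 68.7% at E15.5 and 32.9%, 52.4% and 56.2% in PN libraries. E15.5 averaged 59.1 ± 9.03% and E11.5 24.9 ± 7.95% (SD, n = 3 each), a difference of 34.1 percentage points, with an exact two-sided permutation p of 0.1, the smallest that 3 against 3 can give. The PN mean of 47.2 ± 12.53% (SD, n = 3) differed from E15.5 by -11.9 points (exact permutation p = 0.4) and from E11.5 by 22.2 points (exact permutation p = 0.2). The difference of PN from E15.5 was -4.74 points without PN a and -7.07 points without E15.5 c. Over this family of 3 tests the Benjamini-Hochberg adjusted permutation p-values were 0.3, 0.4 and 0.3 for E15.5 over E11.5, PN over E15.5 and PN over E11.5, and none can pass 0.05. Snrpn shares its locus and first exons with Snurf, which had 461, 347 and 443 FPKM in E11.5, 1535, 948 and 1249.96 FPKM in E15.5 and 1535, 1977 and 2055 FPKM in PN libraries, so how reads were split between them is uncertain. With Snurf added to Snrpn the differences were 37.1 points for E15.5 over E11.5, 0.414 for PN over E15.5, thus no longer negative, and 37.5 for PN over E11.5.

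Among the SF3 genes, 3 fell and 2 rose from E15.5 to PN. Sf3a2, a subunit of SF3A that joins U2 to the branch point, had 36.3, 51.4 and 10.6 FPKM in E11.5, 7.74, 9.99 and 2.77 FPKM in E15.5 and 32.2, 43.7 and 14.3 FPKM in PN libraries, so all E15.5 libraries were below all others. Sf3a2 changed on the log2 scale by -1.99 for E15.5 over E11.5 (limma, SE 0.58, adjusted p = 0.02, lost without E11.5 a or b or E15.5 c or with no low filter with adjusted p up to 0.0901). Sf3a2 had a log2 change of 1.99 for PN over E15.5 (limma, SE 0.58, adjusted p = 0.0273, lost without E15.5 a or c or PN a or b or with no low filter with adjusted p up to 0.112). Sf3b4, which contacts RNA near the branch point, had 310.1, 165 and 113 FPKM in E11.5, 99.4, 76.6 and 46.1 FPKM in E15.5 and 172, 189.9 and 121 FPKM in PN libraries, with E15.5 again lowest. Sf3b4 changed on the log2 scale by -1.34 for E15.5 over E11.5 (limma, SE 0.38, adjusted p = 0.0183, lost without E11.5 a or E15.5 c or with no low filter with adjusted p up to 0.0785). Sf3b4 had a log2 change of 1.15 for PN over E15.5 (limma, SE 0.38, adjusted p = 0.0459, lost without E11.5 b or E15.5 b or c or PN a or b or with failed estimates kept or with median centring or with no low filter or with no trend or with a pseudocount of 0.1 with adjusted p up to 0.167). In both genes library c was the lowest of its stage throughout.

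The SF3 genes that fell to PN were Sf3a3, Sf3b2 and Sf3b3. Sf3a3, the SF3A subunit also called SF3a60, had 48.6, 67.5 and 98.4 FPKM in E11.5, 103, 104 and 94.3 FPKM in E15.5 and 42.8, 43.6 and 57.8 FPKM in PN libraries. Sf3a3 changed on the log2 scale by -1.06 for PN over E15.5 (limma, SE 0.29, adjusted p = 0.0209, lost without E15.5 a or b or PN a or b with adjusted p up to 0.0784). Sf3b2 had 129, 118 and 126 FPKM in E11.5, 168, 163 and 122 FPKM in E15.5 and 81.7, 97.2 and 75.9 FPKM in PN libraries. Sf3b2 changed on the log2 scale by -0.82 for PN over E15.5 (limma, SE 0.24, adjusted p = 0.0301, lost without E15.5 a or b or PN a or c or with no trend with adjusted p up to 0.105). Sf3b3, a large scaffold subunit of SF3B, had 12.7, 13.5 and 16.1 FPKM in E11.5, 13.7, 11.2 and 11.2 FPKM in E15.5 and 5.27, 5.18 and 6.89 FPKM in PN libraries. Sf3b3 changed on the log2 scale by -0.95 for PN over E15.5 (limma, SE 0.30, adjusted p = 0.0421, lost without any E15.5 library or any PN library or with upper quartile scaling with adjusted p up to 0.134). Sf3b3 had a log2 change of -1.16 for PN over E11.5 (limma, SE 0.30, adjusted p = 0.0117). In each of these 3 genes every PN value was below every E15.5 value. Sf3b5, a small subunit of SF3B and the fifth most abundant member, had 599.7, 475 and 291 FPKM in E11.5, 485, 408 and 191 FPKM in E15.5 and 317, 431 and 228 FPKM in PN libraries and passed no stage test, like Sf3a1 and Sf3b1, the subunit that holds the branch point helix.

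In the PRP family 4 of 13 genes were higher and 0 lower at E15.5 than at E11.5, and 0 higher and 4 lower in PN than in E15.5 libraries. Prpf39, a U1-associated factor known from yeast and mouse, had 3.26, 1.67 and 3.06 FPKM in E11.5, 12.1, 11.1 and 24.8 FPKM in E15.5 and 5.94, 7.04 and 10.3 FPKM in PN libraries, lowest in all E11.5 libraries. Prpf39 changed on the log2 scale by 2.16 for E15.5 over E11.5 (limma, SE 0.39, adjusted p = 0.00148, and not called by the authors' deposited q of 0.328). Prpf39 had a log2 change of 1.25 for PN over E11.5 (limma, SE 0.39, adjusted p = 0.0289, lost without E11.5 b or PN b or c or with no low filter with adjusted p up to 0.115). Prpf6, which bridges U5 and U4/U6, had 12.7, 21.0 and 13.3 FPKM in E11.5, 25.3, 33.6 and 32.9 FPKM in E15.5 and 9.71, 7.69 and 8.90 FPKM in PN libraries, highest in all E15.5 libraries. Prpf6 changed on the log2 scale by 0.95 for E15.5 over E11.5 (limma, SE 0.31, adjusted p = 0.0337, lost without E11.5 a or c or E15.5 b or c or with the compared stages only or with upper quartile scaling with adjusted p up to 0.103). Prpf6 had a log2 change of -1.69 for PN over E15.5 (limma, SE 0.31, adjusted p = 0.00243). Prpf3, a U4/U6 protein, had 7.11, 6.30 and 4.47 FPKM in E11.5, 9.40, 14.4 and 15.2 FPKM in E15.5 and 3.33, 3.68 and 1.95 FPKM in PN libraries. Prpf3 had a log2 change of 1.002 for E15.5 over E11.5 (limma, SE 0.36, adjusted p = 0.0493, lost without E11.5 b or c or any E15.5 library or any PN library or with the compared stages only or with median centring or with no low filter or with a pseudocount of 0.1 or with upper quartile scaling with adjusted p up to 0.15). Prpf3 had a log2 change of -1.81 for PN over E15.5 (limma, SE 0.36, adjusted p = 0.00374). Prpf18, which acts in the second step of splicing, had 3.74, 3.30 and 9.94 FPKM in E11.5, 12.1, 13.5 and 12.3 FPKM in E15.5 and 4.84, 3.88 and 5.98 FPKM in PN libraries. Prpf18 had a log2 change of 1.17 for E15.5 over E11.5 (limma, SE 0.39, adjusted p = 0.0393, lost without E11.5 a or b or any E15.5 library or any PN library or with the compared stages only or with no low filter or with upper quartile scaling with adjusted p up to 0.127). Prpf18 had a log2 change of -1.22 for PN over E15.5 (limma, SE 0.39, adjusted p = 0.0418, lost without any E15.5 library or any PN library or with no low filter or with a pseudocount of 0.1 or with upper quartile scaling with adjusted p up to 0.132). Prpf31, a further U4/U6 protein, had 27.6, 39.0 and 33.2 FPKM in E11.5, 60.6, 51.7 and 41.6 FPKM in E15.5 and 16.8, 26.4 and 23.4 FPKM in PN libraries. Prpf31 changed on the log2 scale by -1.18 for PN over E15.5 (limma, SE 0.29, adjusted p = 0.0127, lost without E15.5 a or PN a with adjusted p up to 0.062). In Prpf3, Prpf18 and Prpf31 the E15.5 values lay above both other stages without overlap. Prpf19, a ubiquitin ligase of the catalytic spliceosome, had 18.1, 16.4 and 30.1 FPKM in E11.5, 15.1, 18.3 and 14.9 FPKM in E15.5 and 16.8, 9.50 and 17.8 FPKM in PN libraries, and it passed no stage test, nor did Prpf4, Prpf4b, Prpf8, Prpf38a, Prpf38b and Prpf40b.

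**Figure D4:**
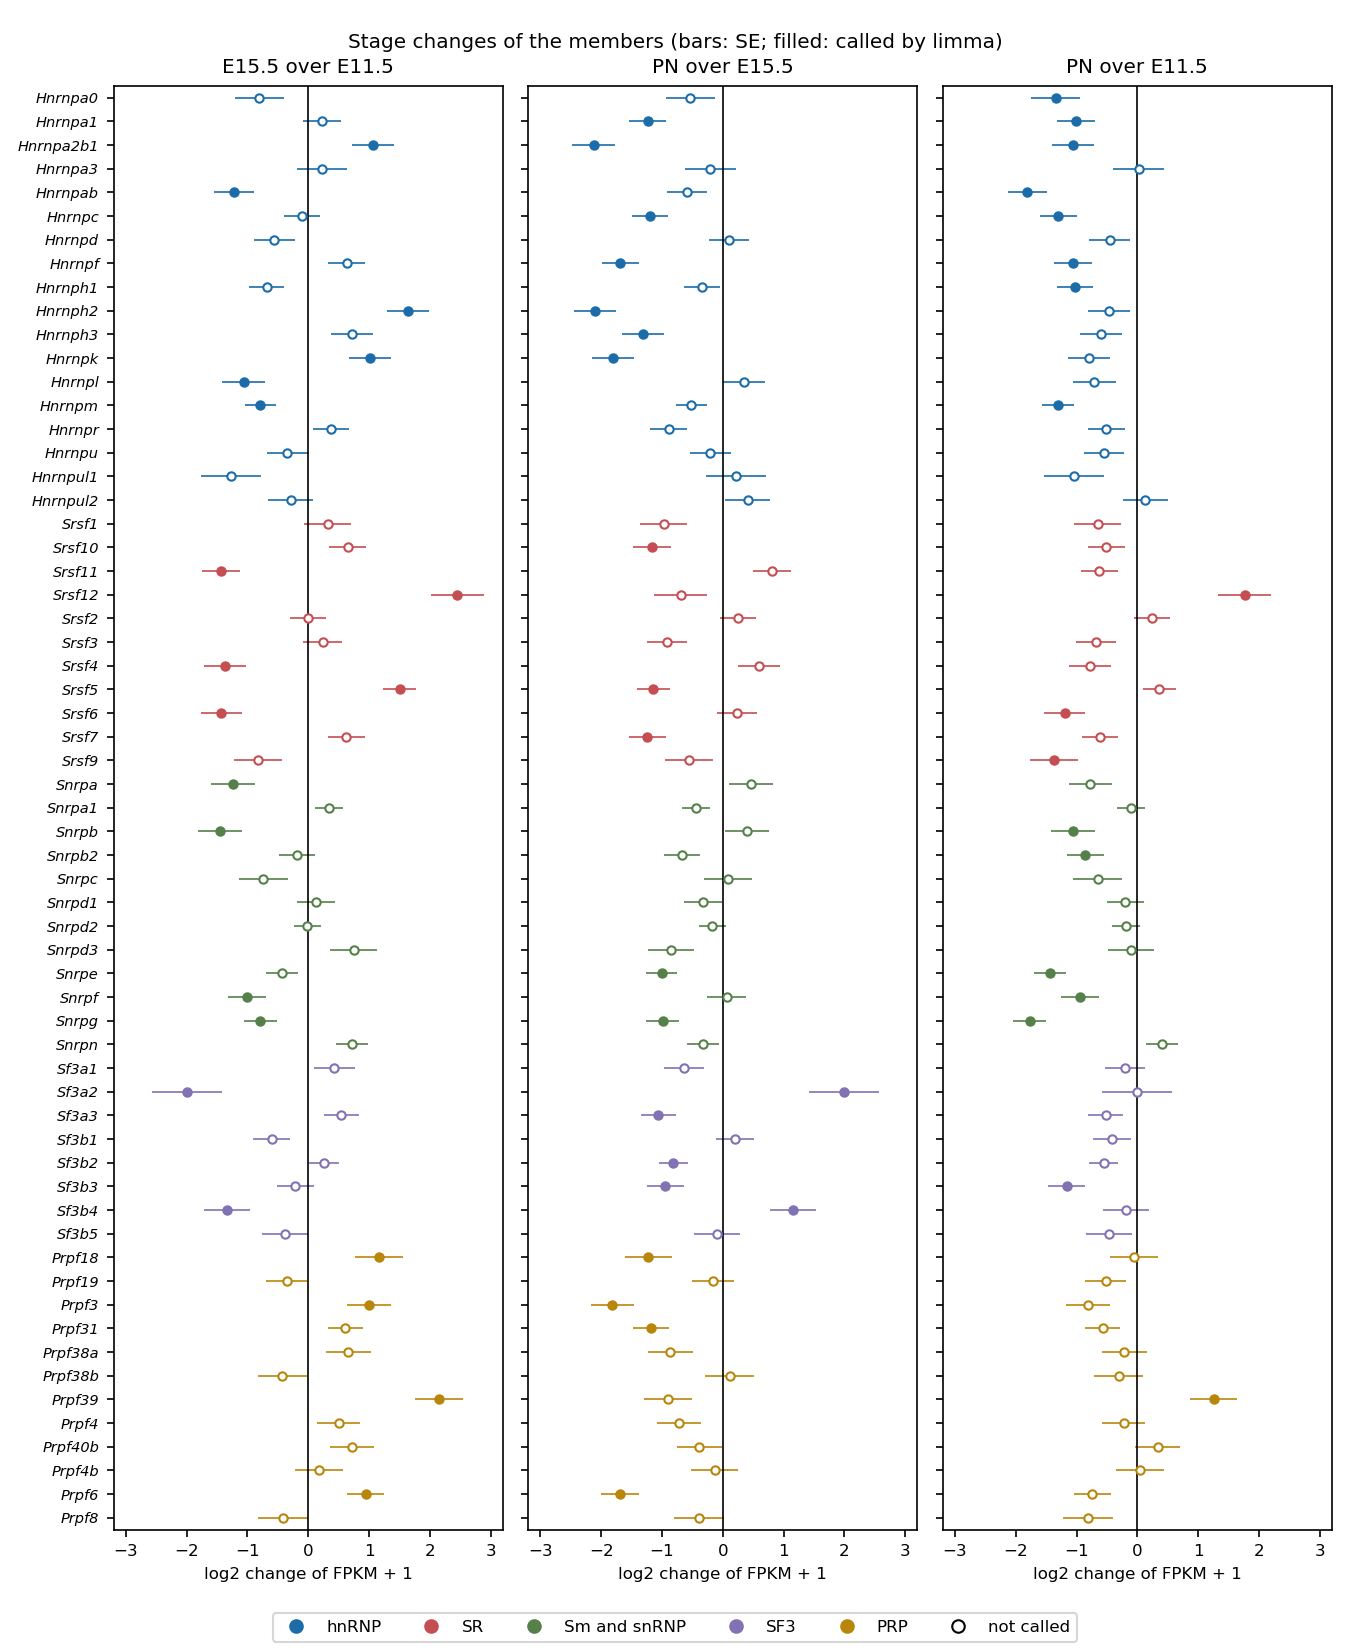
Log2 change of FPKM + 1 for each member drawn in the 3 stage comparisons (horizontal axes, bars for the SE), filled where called by limma and coloured by family. From E15.5 to PN 19 filled points lie left of 0 and 2 to the right.

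Whether the intervals differed was tested as a contrast, the log2 change from E15.5 to PN minus that from E11.5 to E15.5. Of the 62 members 20 passed (limma, adjusted p below 0.05), against 23.2% of all tested genes, 15 with a lower later change and 5 with a higher one. Of all 11700 tested genes 1565 had a lower and 1146 a higher later change. The share of members with a higher one was thus not above that of all genes. Hnrnph2 (-3.74, SE 0.60, adjusted p = 0.00109) and Srsf5 (-2.64, SE 0.48, adjusted p = 0.00216) had the smallest limma p-values. Without E15.5 c 7 were lower and 1 higher, without E15.5 a 9 and 2, and 3 were higher without E11.5 b or PN a. Of all tested genes 964 were lower and 578 higher without E15.5 c, and 877 and 663 without E15.5 a. Higher were 1088 and 895 without E11.5 b and PN a.

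Genes of the same pathway outside the families were counted from 4 lists. Of 62 tested other spliceosome proteins, 3 were higher and 9 lower at E15.5 than at E11.5, where 17.8% and 11.7% of all tested genes were, and 5 were higher and 10 lower in PN than in E15.5 libraries, where 11% and 9.96% were. Snrnp70, the 70K protein of U1, averaged 27.5 ± 12.4 FPKM at E15.5 and 109 ± 5.23 FPKM at E11.5 (SD, n = 3 each, limma log2 change -2.03, SE 0.30, adjusted p = 0.000388). Snrnp70 was then higher in PN, with 70.5 ± 7.75 FPKM in PN and 27.5 ± 12.4 FPKM in E15.5 libraries (SD, n = 3 each, limma log2 change 1.41, SE 0.30, adjusted p = 0.00625). Sf1, the branch point binding protein, averaged 6.89 ± 0.922 FPKM at E15.5 and 33.2 ± 11.6 FPKM at E11.5 (SD, n = 3 each, limma log2 change -2.07, SE 0.32, adjusted p = 0.000454). Rbm22, a protein near the catalytic centre, fell to PN, with 17.0 ± 1.94 FPKM in PN and 48.4 ± 9.58 FPKM in E15.5 libraries (SD, n = 3 each, limma log2 change -1.45, SE 0.31, adjusted p = 0.0058). Of 15 tested SR kinases and SR-related proteins, 2 rose and 3 fell in the early interval and 0 rose and 3 fell in the later one, beside the same shares of all tested genes. In the later interval Thrap3 averaged 9.50 ± 1.33 FPKM in PN and 35.8 ± 6.28 FPKM in E15.5 libraries (SD, n = 3 each, limma log2 change -1.80, SE 0.30, adjusted p = 0.0014). The SR protein kinase Srpk1 also fell, with 19.8 ± 5.87 FPKM in PN and 45.01 ± 5.64 FPKM in E15.5 libraries (SD, n = 3 each, limma log2 change -1.17, SE 0.29, adjusted p = 0.0125).

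Among 39 tested neuronal and tissue splicing regulators, 5 were higher and 9 lower at E15.5 than at E11.5, 3 and 3 in PN than in E15.5 libraries, and 7 and 11 in PN than in E11.5 libraries. Over all tested genes the shares higher and lower were 17.8% and 11.7%, 11% and 9.96%, and 17.7% and 10.3% in these comparisons. Rbfox1, a neuronal regulator that binds GCAUG, averaged 40.5 ± 8.85 FPKM at E15.5 and 3.69 ± 1.05 FPKM at E11.5 (SD, n = 3 each, limma log2 change 3.15, SE 0.32, adjusted p = 2.49e-05). Khdrbs2 (Slm1), a STAR family regulator of neurexin splicing, averaged 37.2 ± 5.94 FPKM at E15.5 and 4.17 ± 5.83 FPKM at E11.5 (SD, n = 3 each, limma log2 change 3.56, SE 0.64, adjusted p = 0.00132). Raly, an hnRNP C relative, fell, with 1.56 ± 0.361 FPKM at E15.5 and 29.1 ± 11.7 FPKM at E11.5 (SD, n = 3 each, limma log2 change -3.49, SE 0.45, adjusted p = 0.000137). From E15.5 to PN the neuronal regulator Rbfox3 (NeuN) rose, with 22.4 ± 7.83 FPKM in PN and 6.33 ± 2.86 FPKM in E15.5 libraries (SD, n = 3 each, limma log2 change 1.69, SE 0.47, adjusted p = 0.0222). A list named for the SMN complex, which loads the Sm ring, also held genes outside that complex, among them Prmt5 and Wdr77. Of its 12 tested genes, 2 rose (Prmt5 and Wdr77) and 1 fell (Gemin7) in the early interval. In the later interval 1 rose and 1 fell, and the counts of both intervals were near those shares. The SMN complex member Gemin7 averaged 102 ± 18.3 FPKM at E15.5 and 281 ± 76.8 FPKM at E11.5 (SD, n = 3 each, limma log2 change -1.43, SE 0.27, adjusted p = 0.00214). Gemin7 then had 214 ± 39.3 FPKM in PN and 102 ± 18.3 FPKM in E15.5 libraries (SD, n = 3 each, limma log2 change 1.06, SE 0.27, adjusted p = 0.0166).

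In the knockout, Fev had 0.422 FPKM in Pet-1-/- and 31.1 FPKM in wild-type neurons with the Clontech kit, and 0.308 FPKM in Pet-1-/- and 34.9 FPKM in wild-type neurons with the NuGEN kit, as the labels require. The authors' deposited tables give 1 FPKM value per group, so no spread of libraries can be shown, and the q-values are theirs. Members counted as called had a q below 0.05, a change of 1.5-fold or more, and 1 FPKM or more in a group. With the Clontech kit, in the authors' deposited table, 0 members were called higher and 0 lower, where 0.969% and 1.85% of 10939 genes were. There 8 of 62 members had an unadjusted p below 0.05, as did 1844 of the 10939 genes, and the lowest q of a member was 0.155. With the NuGEN kit, in the authors' deposited table, 6 members were higher and 3 lower, against 8.19% and 4.56% of 11019 genes. The tables were normalised separately, and the difference between kits was not tested.

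All 6 higher members with the NuGEN kit encode small proteins of the snRNPs. Snrpg had 1257 FPKM in Pet-1-/- and 623 FPKM in wild-type neurons in the authors' deposited table (log2 1.01, q = 0.00206). Snrpe had 840.1 FPKM in Pet-1-/- and 449 FPKM in wild-type neurons in the authors' deposited table (log2 0.90, q = 0.0058). Snrpd2 had 916 FPKM in Pet-1-/- and 499 FPKM in wild-type neurons there (authors' deposited table, log2 0.88, q = 0.00206). The same table lists Snrpf, Snrpd1 (SmD1) and Sf3b5 higher too. Snrpf had 119 FPKM in Pet-1-/- and 67.1 FPKM in wild-type neurons in the authors' deposited table (log2 0.83, q = 0.012). Snrpd1 had 441 FPKM in Pet-1-/- and 257 FPKM in wild-type neurons in the authors' deposited table (log2 0.78, q = 0.0155). Sf3b5 had 263 FPKM in Pet-1-/- and 162 FPKM in wild-type neurons in the authors' deposited table (log2 0.70, q = 0.0333).

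All 12 Sm and snRNP genes had log2 values above 0 with the NuGEN kit (median 0.54, against 0.09 for all genes), and 5 of the 12 were called higher. These 5 were all among the 7 Sm core genes, a part of the family that was not among the planned sets. With the Clontech kit the same 12 genes had a median of -0.05, with 4 above 0 and 8 below. Cytosolic ribosomal protein genes, a list chosen after its values were seen, moved the same way: 52 of 76 were called higher with the NuGEN kit (median log2 0.79) and 0 of 76 with the Clontech kit (median -0.05). What they have in common with the Sm genes was not tested. The members lower with the NuGEN kit were Prpf18, Prpf19 and Sf3b3. Prpf18 had 10.04 FPKM in Pet-1-/- and 18.3 FPKM in wild-type neurons in the authors' deposited table (log2 -0.86, q = 0.00754), and with the Clontech kit 9.47 FPKM in Pet-1-/- and 14.2 FPKM in wild-type neurons (log2 -0.58, q = 0.166). Prpf19 had 25.9 FPKM in Pet-1-/- and 44.9 FPKM in wild-type neurons in the authors' deposited table for NuGEN (log2 -0.79, q = 0.0222), and Sf3b3 had 12.1 FPKM in Pet-1-/- and 20.2 FPKM in wild-type neurons (log2 -0.74, q = 0.0236). These 3 had log2 values below 0 with both kits. The sign agreed between kits for 40 of 62 members (64.5%), against 57.0% of 10501 genes.

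**Figure D5:**
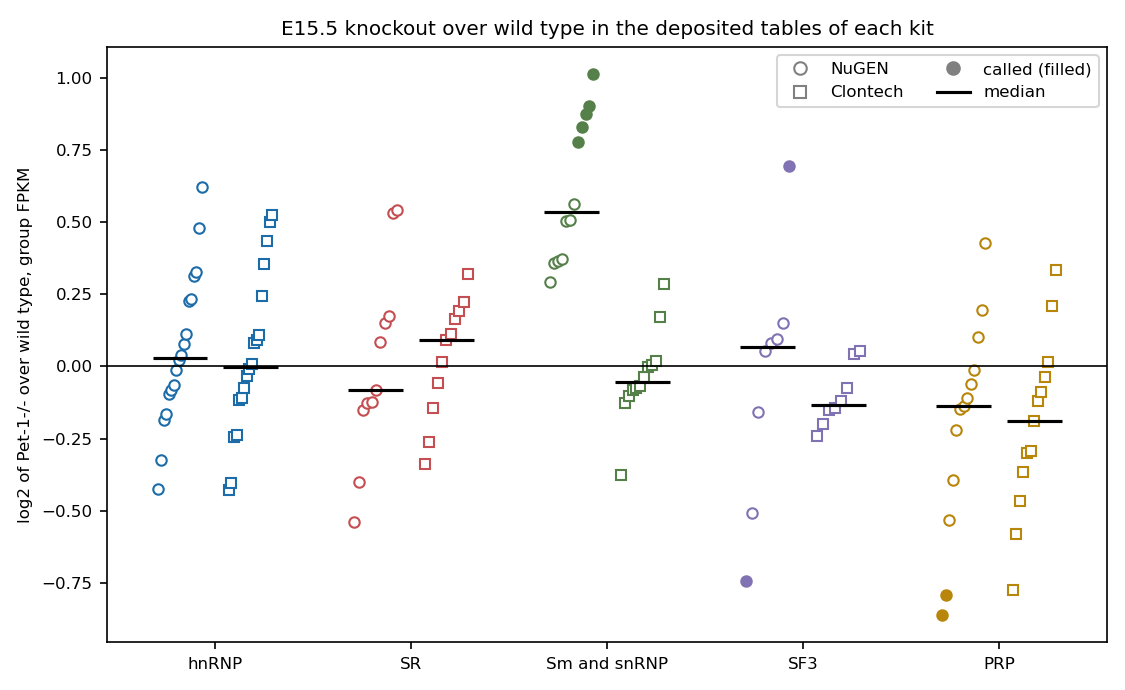
Log2 of Pet-1-/- over wild-type group FPKM at E15.5 (vertical axis) for each member by family, with NuGEN (circles) and Clontech (squares) side by side, filled where called and with lines for medians. The 12 Sm and snRNP genes lie above 0 with the NuGEN kit, with a median of 0.54, and around 0 with the Clontech kit, with a median of -0.05.

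Of the 38 members with a mycPet-1 peak, 3 were higher and 2 lower with the NuGEN kit, and of the 24 without a peak 3 were higher and 1 lower. With the Clontech kit 0 of either set was called. From E15.5 to PN, 15 of the 38 members with a peak and 4 of the 24 without fell, and 1 of each set rose. Of all tested genes, with or without a peak, 9.96% fell and 11% rose from E15.5 to PN. Calls among all genes were not split by peak, so these splits cannot be read as particular to the members. They are descriptions, and the difference between the sets was not tested. Among the pathway lists in the knockout, the authors' deposited table for NuGEN called 7 other spliceosome proteins of 62 higher and 0 lower, where 8.19% and 4.56% of all genes were, among them Lsm7, a ring protein of U6, at 751 FPKM in Pet-1-/- and 438 FPKM in wild-type neurons (log2 0.78, q = 0.0161). The SR-related gene Son was higher in the authors' deposited table for NuGEN, at 42.0 FPKM in Pet-1-/- and 19.7 FPKM in wild-type neurons (log2 1.09, q = 0.00206). Srrm4, a neuronal activator of microexons, was higher in the authors' deposited table for NuGEN too, at 10.01 FPKM in Pet-1-/- and 4.94 FPKM in wild-type neurons (log2 1.02, q = 0.00206). Of 39 splicing regulators 2 were higher there, Srrm4 and Rbfox1 (log2 0.67, q = 0.0403), and 4 were lower. The lower ones were Mbnl1 (log2 -0.84, q = 0.02), Celf1 (log2 -0.76, q = 0.0293), Elavl2 (log2 -0.69, q = 0.0306) and Ptbp2 (log2 -0.68, q = 0.0455). In the authors' deposited table for NuGEN 0 of 12 genes of the list named for the SMN complex were higher and 1 was lower, Strap (log2 -0.97, q = 0.00206). With the Clontech kit 2 splicing regulators were higher and 0 lower, where 0.969% and 1.85% of all genes were. The authors' deposited table for Clontech has Elavl3, a neuronal RNA-binding protein, at 77.8 FPKM in Pet-1-/- and 44.7 FPKM in wild-type neurons (log2 0.80, q = 0.00391) and Nova2 at 6.29 FPKM in Pet-1-/- and 3.66 FPKM in wild-type neurons (log2 0.78, q = 0.0333).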

How the data were processed

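Stage values are FPKM per library, deposited by the authors, and the knockout tables hold group FPKM, log2 fold changes, p-values and q-values of Cuffdiff form, deposited by the authors per the file headers. The deposited peak list (mm10) holds 1 score for each peak; MACS is named in its first line, a unit is not. The submitters' processing notes name TopHat2, Cufflinks, BWA, MACS 1.4.2, mm9 and mm10, with no role. Coordinates of the expression tables were not used. The members and lists were chosen with earlier results of these data known.

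For the stages, log2(FPKM + 1) was fitted by limma 3.58.1 (R 4.3.3) with a trend of variance on level, in 1 fit over 9 libraries (6 residual degrees of freedom). Fold changes on this scale are understated for low genes. The fit held 11700 genes (1 FPKM or more in 3 libraries or more), and Benjamini-Hochberg adjustment covered all of them. Genes at 0 in a library although another of the stage had at least 20 FPKM (124, with 0 members) were left out, and so were 3 matrix columns that match no sample. Log2 values correlated at 0.904 to 0.966 within stages and 0.789 to 0.883 between them, so no library was a copy. Genes were placed by RefSeq spans of GRCm38.p6, and 55 members matched the promoter table, all 62 the gene table. Where no start was listed, only the span was searched. Depth is unknown, so no counting error can be given.

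Values in every library are given for the 10 called members with the largest change per stage comparison and direction, members called in a knockout table, the 5 with the highest mean FPKM, Snrpb and Snrpn, and called members with a peak. For the stages, the pathway genes named are some, not all, of those called with the 3 largest changes per list. For the knockout they are examples of the called genes. Reads on pseudogenes or overlapping genes may be split, since no source used here gives the counting, and 10 members share a listed locus with another gene. The values of 1 member are not reported here by name, and it is left out of the plots that name genes, but it is in all counts. Alternatives covered the pseudocount, the low filter, scaling, the trend, the samples in the fit, thresholds and single libraries.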

Additional observations from a re-analysis of the deposited data

Results flagged for a closer look

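For 20 members the change from E15.5 to PN differed from the change from E11.5 to E15.5 by the test of the difference itself (limma, adjusted p below 0.05 over all tested genes, where 23.2% of genes passed). Of the members 15 had a lower and 5 a higher later change, against 1565 and 1146 of all 11700 tested genes. All values here are the later log2 change minus the earlier one. Both changes contain the E15.5 libraries with opposite signs, and groups had 3 libraries each.

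Of the hnRNP genes, Hnrnph2 had -3.74, Hnrnpa2b1 -3.19, Hnrnpk -2.82, Hnrnpf -2.31 and Hnrnph3 -2.04. Of the SR genes, Srsf12 had -3.14, Srsf5 -2.64, Srsf7 -1.86 and Srsf10 -1.82, while Srsf11 had 2.25 and Srsf4 1.97. Of the PRP genes, Prpf39 had -3.06, Prpf3 -2.82, Prpf6 -2.64, Prpf18 -2.39 and Prpf31 -1.79. Of the SF3 genes, Sf3a3 had -1.60, Sf3a2 3.98 and Sf3b4 2.49, and of the Sm genes Snrpb had 1.85. Adjusted p-values (limma) were 0.00109 for Hnrnph2 at the lower end and 0.0487 for Snrpb at the upper end. For 6 of the 20 the call held under every alternative: Hnrnpa2b1, Hnrnph2, Hnrnpk, Prpf3, Prpf6 and Srsf5.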

How the results depend on the processing

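The stage columns carry an index that the labels do not tie to replicate numbers, so no pairing was assumed. Deviations of libraries with the same index correlated at 0.0570 to 0.417 between stages, and those with different indices at -0.267 to 0.156. The best match had the same index except between E15.5 b and PN a, at 0.156, against 0.121 for E15.5 b with PN b. A replicate block on that index, chosen after seeing the data, left 4 residual degrees of freedom and gave 10 members higher and 15 lower at E15.5 against E11.5, 3 and 22 in PN against E15.5, 2 and 19 in PN against E11.5 and 7 and 19 in the interval difference, and 0 calls were lost. Over all tested genes the block also gave more calls. These were 2472 higher and 1671 lower, 1604 and 1520, 2388 and 1493, and 1433 and 1959 in that order. Without the block they were 2079 and 1371, 1292 and 1165, 2069 and 1207, and 1146 and 1565. No paired analysis was possible for the knockout because those tables hold group values only. From E11.5 to E15.5, where 9 members were higher and 12 lower, 5 were higher with only the compared stages in the fit, 5 with no filter on low values (6 lower) and 4 with upper quartile scaling, and leaving out a library gave 4 to 8 higher and 7 to 12 lower. Over all genes, 1762, 1651 (1061 lower, of 17609 tested) and 1664 were higher with these settings in that order. Leaving out a library gave 1476 to 2110 higher and 918 to 1279 lower over all genes. From E15.5 to PN, with 2 higher and 19 lower, 1 was higher with failed estimates kept, median centring, no trend or a pseudocount of 0.1, and 0 with no filter, and leaving out a library gave 0 to 2 higher and 8 to 22 lower. Over all genes 1254, 1139, 1275 and 1024 were higher with those settings, and 1064 with no filter. Leaving out a library gave 818 to 1551 higher and 555 to 1468 lower over all genes. From E11.5 to PN, with 2 higher and 16 lower, no filter gave 1 and 10, and leaving out a library gave 1 to 2 higher and 8 to 16 lower. Over all genes no filter gave 1930 and 1002, and leaving out a library gave 1598 to 2027 higher and 895 to 1180 lower. In the interval difference, with 5 higher and 15 lower, no filter gave 1 higher, and leaving out a library gave 1 to 6 higher and 7 to 17 lower. Over all genes no filter gave 945 higher, and leaving out a library gave 578 to 1234 higher and 877 to 1698 lower. The cause was not tested. By the authors' deposited q, 13 were higher and 18 lower from E11.5 to E15.5, and 3 higher and 28 lower from E15.5 to PN. Calls by that q were not counted over all genes, so these counts have no share to compare with. That q was not run for PN against E11.5 or the interval difference. Calls held under every alternative for 8 of 21, 7 of 21 and 7 of 18 members over the 3 stage comparisons in that order. With peaks of at least the median score, 24 members had a peak (38.7%, where 19.6% of tested genes did). With all peaks it was 38 members (61.3%, where 35.6% of tested genes did). The Snrpn share difference was 29.3 to 38.5 points for E15.5 over E11.5, -16.4 to -4.74 for PN over E15.5 and 17.7 to 29.4 for PN over E11.5 when a library was left out, and with Snurf added, an alternative chosen after seeing the data like the removal of genes with too many reads for an estimate, 0.414 and 37.5 for PN over E15.5 and PN over E11.5. Knockout calls stayed at 6 higher and 3 lower with the NuGEN kit under upper quartile scaling. That setting kept the authors' q-values and only lowered each log2 change by 0.0499. The smallest called change, that of Sf3b5, went from 0.696 to 0.646, so the setting could hardly remove a call and does not test them. Depth is unknown, and 3 libraries a group limit what can be called.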
